A study of Mus musculus with 14 samples.

Results

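The genes described here are 10 mouse genes of the G1 switch: the kinase genes Cdk6 and Cdk4, the cyclin genes Ccnd1, Ccnd2 and Ccnd3, the inhibitor genes Cdkn1a, Cdkn1b, Cdkn2c and Cdkn2d, and Rb1. They are 10 of the 21887 protein-coding genes examined in CD11b+ cells from brain tumours. Each was read through H3K27ac (acetylation of lysine 27 on histone H3, a mark of active promoters and enhancers) within 1 kb of either gene end and over the gene span plus 10 kb on both sides. Cdk6 was chosen by the H3K27ac rank of a region inside it, which was higher with pracinostat in these libraries. Every comparison of pracinostat with DMSO at Cdk6 is therefore given as a description without a test. The other 9 genes were taken for their part in the same step of the cell cycle, with earlier results of these data known.

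The study's title concerns a drug screen on glioblastoma-associated macrophages that singled out histone deacetylase inhibitors, and pracinostat is such an inhibitor. NSG mice, an immunodeficient strain, carried orthotopic xenografts of T387 glioblastoma (GBM) cells. The drug group received pracinostat by oral gavage at 30 mg/kg on 4 occasions a week for 3 weeks, starting 7 days after implantation, and the control group received the DMSO vehicle on the same schedule. The labels conflict on the dose, since their preparation text gives 3 mg/kg. Both groups received the same solvent of DMSO, PEG300, Tween-80 and PBS. CUT&Tag, in which an antibody directs a transposase to the marked chromatin, was run with H3K27ac antibody on 3 DMSO and 4 pracinostat samples and with non-specific IgG on as many. Libraries are labelled as biological replicates without a link to single animals, so the spread that enters a p-value is that between libraries. NSG mice lack mature lymphocytes and the tumour cells are human, which limits the host response that such a model can hold.

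Passage from G1 into S phase is controlled by kinase complexes of CDK4 or CDK6 with a D-type cyclin, which phosphorylate the retinoblastoma protein and release E2F transcription factors. INK4 inhibitors such as those encoded by Cdkn2c and Cdkn2d bind the kinases themselves, and CIP/KIP inhibitors such as those encoded by Cdkn1a and Cdkn1b bind cyclin-kinase complexes. In blood cells CDK6 is the kinase most tied to proliferation of stem and progenitor cells, and Cdkn1a is widely known as a gene induced by histone deacetylase inhibitors.

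Summit lists were the deposited data, each summit being the highest base of a peak with a −log10 significance score. H3K27ac libraries held 208401, 53503 and 291042 summits (DMSO replicates 1 to 3) and 229609 to 289017 (pracinostat replicates 1 to 4). IgG libraries held 2194 to 18517. DMSO replicate 2 stood apart, with the shortest H3K27ac list and 34928 of its summits tied at its lowest score. Several differences below are also given without it. Because scores grow with depth, a gene was ranked within each library by its highest summit, and its level is the percentile among ranked genes (100 is the highest). Genes without a summit tie at the bottom, at 19.0 in DMSO replicate 2, and genes at that library's lowest score tie at 47.3. Differences are in normal scores, the percentile turned into units of 1 SD of all ranked genes. In sorted cells read in bulk, fewer marked cells and less mark per cell cannot be told apart.

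Promoter letters are shown for the genes on which the results turn: Cdk6 and Cdk4, the paired kinase genes, and the 2 annotated starts of Cdkn1a, whose levels lay far apart. Each line gives the 250 bases before the annotated start, 5′ to 3′ on the coding strand, from RefSeq on GRCm38.p6, the assembly that mm10 names. They lie on the + strand at chr5:3343643-3343892 (Cdk6), chr10:127063285-127063534 (Cdk4), chr17:29090729-29090978 (Cdkn1a, outer start) and chr17:29093519-29093768 (Cdkn1a, inner start). Capitals mark CACGTG and TTTNNCGC in Cdk6, CACGTG in Cdk4 and GGGCGG in Cdkn1a.
Cdk6: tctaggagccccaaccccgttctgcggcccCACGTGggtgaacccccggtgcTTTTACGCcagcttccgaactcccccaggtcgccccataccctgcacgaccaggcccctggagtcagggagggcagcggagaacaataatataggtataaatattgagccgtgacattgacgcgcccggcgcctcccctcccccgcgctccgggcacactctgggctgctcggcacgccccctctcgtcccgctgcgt
Cdk4: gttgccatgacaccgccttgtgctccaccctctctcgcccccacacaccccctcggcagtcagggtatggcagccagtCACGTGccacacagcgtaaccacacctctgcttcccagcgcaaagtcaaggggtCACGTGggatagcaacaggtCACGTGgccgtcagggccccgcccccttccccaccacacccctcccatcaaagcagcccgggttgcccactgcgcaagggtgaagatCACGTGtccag
Cdkn1a outer start: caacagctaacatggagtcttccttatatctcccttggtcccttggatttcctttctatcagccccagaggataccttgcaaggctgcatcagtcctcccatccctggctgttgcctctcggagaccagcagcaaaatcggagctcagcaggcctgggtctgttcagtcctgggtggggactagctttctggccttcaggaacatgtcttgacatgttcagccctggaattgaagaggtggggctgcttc
Cdkn1a inner start: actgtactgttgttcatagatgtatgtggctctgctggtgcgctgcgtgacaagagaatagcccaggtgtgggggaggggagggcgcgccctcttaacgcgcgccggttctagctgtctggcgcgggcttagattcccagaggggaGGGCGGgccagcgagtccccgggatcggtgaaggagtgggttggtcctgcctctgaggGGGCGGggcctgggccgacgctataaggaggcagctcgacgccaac

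For 4 strings the search covered both strands of the same 250 bases in 21263 annotated promoters. CACGTG, the E-box that MYC and related factors recognise, matched 4 times before Cdk4 and 1 time before Cdk6. It was present in 6.63% of all promoters, and 0.0188% held 4 or more matches. TTTNNCGC, the core of E2F elements, matched 1 time before Cdk6 and in 5.14% of promoters. The GC box GGGCGG, found on either strand in 42.6% of promoters, matched 2 times before the inner start of Cdkn1a and 0 times before its outer start. The inner Cdkn1a stretch had 64.8% G and C with 19 CpG, against 54% with 2 CpG for the outer one. All promoters had medians of 55.6% and 10. Cdkn2c (outer start) and Cdkn2d each held 3 GC boxes, a number reached by 11.6% of promoters, and Cdkn1b held 2 matches of CCAAT, which 35.4% of promoters hold at least 1 time. Matches of different strings overlapped at 0 of the 4 printed stretches. A match describes letters only. Of the 10 genes, 7 were in the promoter table, with 10 starts, and Ccnd1, Ccnd2 and Rb1 were not.

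At 9 of the 10 genes H3K27ac summits lay at the gene ends more often than IgG summits did. Cdk6, Ccnd3, Cdkn1b, Cdkn2c and Cdkn2d had a summit in 7 of 7 H3K27ac libraries and 0 of 7 IgG libraries (two-sided Fisher's exact test, p = 0.000583, adjusted p = 0.00186 over all genes). Cdk4 had 7 against 1, and Ccnd1, Cdkn1a and Rb1 had 6 against 0 (Fisher's exact p = 0.00466, adjusted p = 0.0102 for each). Ccnd2, the cyclin D2 gene, had 3 against 0 and did not pass (exact p = 0.192). Over all genes 50.2% passed, so a passing gene is common. The lists differ in length. When every list was limited to the 2194 highest summits of the shortest one, 0 of the 10 genes and 0 of 21887 passed, with 0 to 2 of the 10 genes holding an end summit in each H3K27ac library. In these lists the IgG library of pracinostat replicate 4 held an end summit at 1 of the 10 genes, and the other IgG libraries at 0. With windows moved by 100 kb, 2 of the 10 passed (those of Ccnd1 and Cdk4), against 16.1% of all genes.

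Cdkn2d and Cdk4 held the highest levels at their ends, and Ccnd2 the lowest. Over the 7 H3K27ac libraries the mean end percentile was 86.2 ± 8.005 (SD, n = 7) at Cdkn2d, the INK4 gene for p19, and 84.5 ± 9.11 at Cdk4. Next came Cdkn2c at 72.4 ± 9.51, Cdkn1b at 68.8 ± 19.7, Ccnd3 at 68.4 ± 21.4 and Ccnd1 at 52.0 ± 21.2. Cdkn1a at 32.3 ± 10.6, Cdk6 at 32.0 ± 12.3 and Rb1 at 31.8 ± 17.5 lay below the middle of all genes, and Ccnd2 was at 13.6 ± 12.1. Neighbours in this order differed by less than the larger of their SDs except at 2 places, between Cdk4 and Cdkn2c and between Rb1 and Ccnd2. Some ends are shared. The end of Cdk4 lies 1 bp from Tspan31, those of Ccnd3, Cdkn2d and Ccnd1 lie 358 bp from Bysl, 490 bp from Kri1 and 817 bp from LTO1, and a window there cannot tell the genes apart. At Cdkn2d the end near Kri1 held the higher summits, at a median percentile of 98.5 among a library's summits. The end with its own annotated start had a median of 95.8. Within 1 kb of that start the level of Cdkn2d was 62.1 ± 16.9 among starts.

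At its table ends Cdk6 stood at percentiles of 16.4, 47.3 and 42.3 in DMSO libraries and 26.7, 30.5, 18.3 and 42.4 in pracinostat libraries. The groups overlapped, and all 7 values were below the middle of all genes. The annotated start of Cdk6, at base 3343893 of chromosome 5, lies 2889 bp inside the table's gene and outside that 1 kb window. At the annotated start the gene stood at percentiles of 74.4, 82.9 and 79.6 in DMSO libraries and 76.3, 72.9, 60.0 and 86.4 in pracinostat libraries. Both groups lay in the upper part of all starts and overlapped. Among 10 annotated starts Cdk4 (82.7 ± 10.2) and the inner start of Cdkn1a (78.9 ± 12.5) had the highest means, followed by Cdk6 (76.1 ± 8.54). Next were Cdkn2c (outer, 69.4 ± 10.4), Cdkn1b (65.4 ± 21.9), Ccnd3 (outer, 65.2 ± 23.4) and Cdkn2d (62.1 ± 16.9). The inner starts of Ccnd3 and Cdkn2c, at 38.3 ± 13.9 and 36.3 ± 17.7, and the outer start of Cdkn1a, at 26.7 ± 8.73, formed the lower end, and the gap between Cdkn2d and inner Ccnd3 was the only one beyond the larger SD of its pair.

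**Figure D1:**
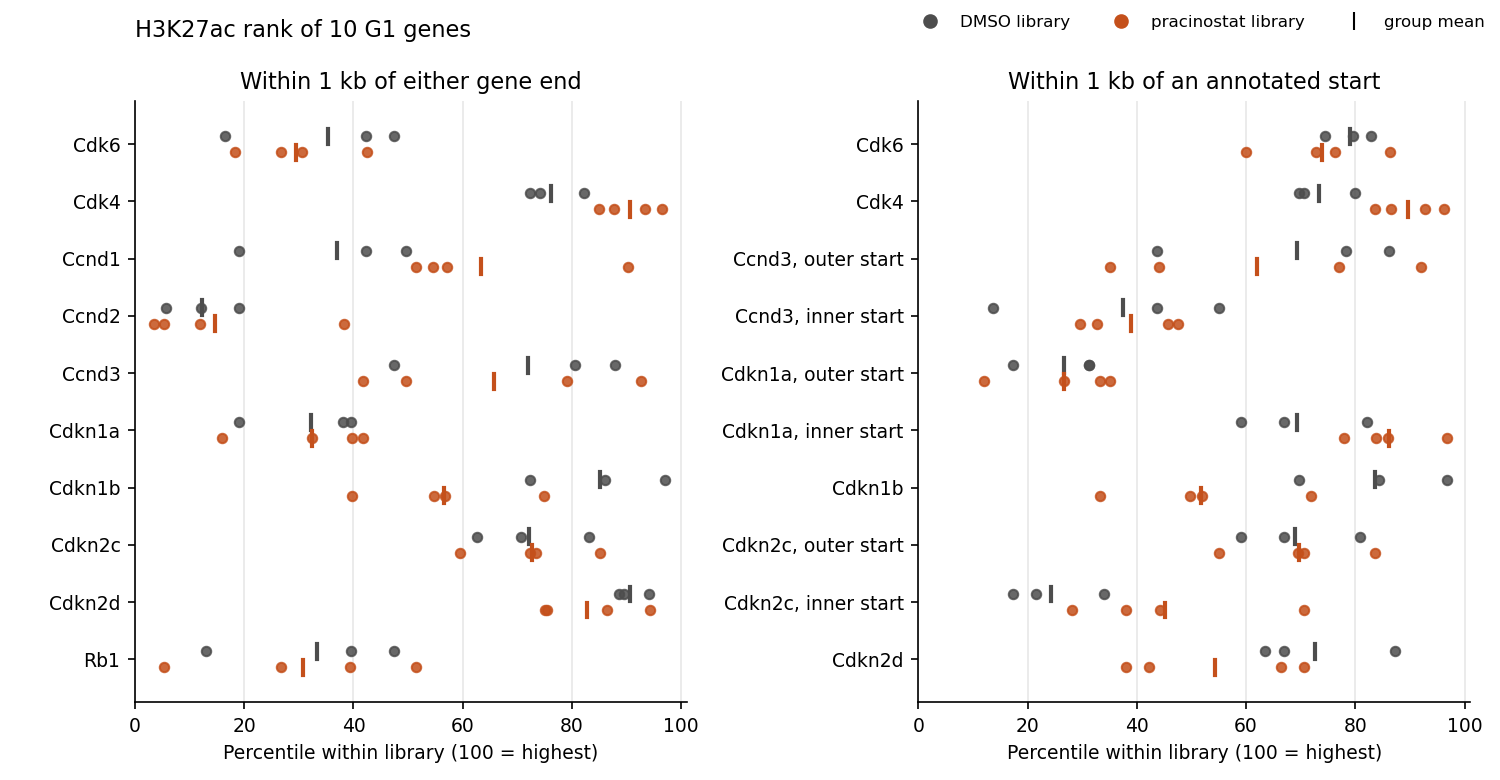
H3K27ac level of the 10 genes as the percentile of the highest summit within each library, at the gene ends (left) and at the annotated starts of 7 of the genes (right). Points are libraries (3 DMSO in grey, 4 pracinostat in orange) and ticks are group means. Cdk4 is the gene whose groups do not overlap in either panel, and Ccnd1 does not overlap at its ends.

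Strong summits flanked the Cdk6 start. The highest one on the upstream flank lay between −1247 and −881 bp from the start in the 7 libraries, and the highest one downstream between 619 and 756 bp, while 0 or 1 summit per library fell within 500 bp. The highest summit within 1 kb was within 250 bp of the start in 0 of 7 libraries. At Cdk4 it was there in 7 of 7, at Cdkn2d in 6 of 7 and at the inner start of Cdkn1a in 5 of 7, and over all starts with a summit in 49.8 to 60.1% per library. The downstream flank was the higher one in 6 libraries, such as pracinostat replicate 1, where its summit stood at percentile 97.2 of that library's summits and the upstream one at 83.3. In pracinostat replicate 3 the order was the other way, with 91.8 downstream and 96.2 upstream. IgG gave 1 summit there, 788 bp after the start, in pracinostat replicate 2.

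Between treatments, 0 of 13494 gene ends passed in limma on the ranks (6.17%, or 832, were below 0.05 before adjustment), so none of the 9 tested genes did. The largest differences were at Cdkn1b, which stood lower with pracinostat, and at Ccnd1 and Cdk4, which stood higher.

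Cdk4, the partner kinase of Cdk6, had end percentiles of 82.2, 72.3 and 74.1 with DMSO and 87.7, 85.02, 96.6 and 93.3 with pracinostat. The lowest pracinostat library was above the highest DMSO library. The difference was 0.66 ± 0.40 (SE) normal scores (limma adjusted p = 0.851). Its annotated start gave the same order, with 79.9, 69.7 and 70.7 against 86.5, 83.5, 96.2 and 92.7 (0.69 ± 0.41, limma adjusted p = 0.865). The groups were also apart over the gene span (0.65 ± 0.34, limma adjusted p = 0.842), where the difference was 0.18 with no flank. In each case pracinostat lay higher by less than 2 SE, and without DMSO replicate 2 the end difference was 0.60. A region at the Cdk4 start, chr10:127063069-127064248, stood at 93.0, 86.7 and 86.9 against 94.2, 94.4, 98.5 and 97.2 among regions. A region inside the gene, chr10:127065012-127065512, went the other way, at 34.7, 86.7 and 34.3 against 9.03, 27.4, 10.8 and 7.73 (−1.26 ± 0.57). In that region the groups did not overlap, but of the pracinostat libraries replicate 2 alone had a summit, and the other values are ties. The difference was −0.75 without DMSO replicate 2. Its direction depended on how summits were merged, since it was 0.58 with summits extended by 500 bp and 0.48 with all summits.

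Ccnd1, which encodes cyclin D1, stood at 49.7, 19.0 and 42.3 with DMSO and 54.5, 51.4, 57.2 and 90.3 with pracinostat. No summit was present in DMSO replicate 2, and the groups did not overlap. The difference was 0.77 ± 0.37 (limma adjusted p = 0.809). It was 0.51 without DMSO replicate 2, 0.47 without pracinostat replicate 4 and 0.064 with 2.5 kb windows. Before adjustment its limma p was under 0.05, as was that of Cdkn1b, which stood lower with pracinostat. This held for 2.74% of all gene ends with pracinostat higher and for 3.42% with pracinostat lower. The groups were apart with pracinostat higher at 2.88% and lower at 3.79%. Of the 10 genes, 2 were apart with pracinostat higher (Cdk4 and Ccnd1) and 0 lower. The mark lay at the right-hand table end of Ccnd1 in 6 libraries and at the left-hand end, toward LTO1, in 3. Over the gene span the difference was −0.05. A region inside LTO1, chr7:144922731-144923231, stood at 58.1, 42.7, 69.0 and 30.2 with pracinostat (difference 1.07 ± 0.56). No DMSO library had a summit in it, and their values of 10.04, 25.1 and 10.2 are the ties at the bottom. The region was ranked through the pracinostat libraries alone, which fixed the order of the groups, so its difference is a description. That difference was 0.46 with summits extended by 500 bp and 0.64 with all summits.

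At their ends the other cyclin D genes showed no difference beyond the libraries' spread. Ccnd2 had an end summit in DMSO replicate 3 and pracinostat replicates 1 and 2 alone, with percentiles of 12.0, 38.3 and 11.9, and all of them lay at its right-hand table end. Its single ranked region, chr6:127143502-127144002, stood at 21.4, 77.7 and 53.9 with DMSO and 36.5, 7.40, 10.8 and 7.73 with pracinostat (−1.14 ± 0.57), and the groups overlapped. Of the pracinostat libraries replicate 1 alone had a summit in that region, and the other values are ties. The DMSO libraries alone met the filter for ranking, so the difference is a description. The difference was −0.77 without DMSO replicate 2, −0.57 with summits extended by 500 bp and −0.37 with all summits. Ccnd3, the cyclin D3 gene, ranged from 47.3 to 87.9 with DMSO and from 41.7 to 92.7 with pracinostat at its ends (−0.15 ± 0.41, limma adjusted p = 0.974). Libraries of each group lay at both extremes. The highest of its 13 regions, chr17:47501722-47502631, was centred at −2875 bp from its outer start, at an end of Taf8. That region held 88.1, 93.8 and 98.5 in DMSO and 99.1, 92.8, 91.5 and 84.6 in pracinostat libraries. Inside the gene, chr17:47539921-47540421 stood at 24.4, 60.9 and 41.3 with DMSO (difference −1.15 ± 0.53). No pracinostat library had a summit there, and their values of 9.03, 7.40, 10.8 and 7.73 are the ties at the bottom. Ranking needed a summit in at least 3 of 7 libraries, which the DMSO libraries alone supplied. The order of the groups was thus fixed by that filter, and the difference is a description. Over the alternatives it ran from −1.39 to −0.81 (−0.90 without DMSO replicate 2).

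Cdkn1b, the gene of p27, stood at 85.98, 72.3 and 97.04 with DMSO and 74.9, 39.7, 54.7 and 56.7 with pracinostat. Pracinostat replicate 1 overlapped DMSO replicate 2, and the other 3 pracinostat libraries were lower. The difference was −1.01 ± 0.39 (limma adjusted p = 0.776), the largest among the 10 genes at their ends. At the annotated start it was −1.08 ± 0.41 (limma adjusted p = 0.729). At the ends it was −1.31 without DMSO replicate 2, −0.66 without DMSO replicate 3, −0.54 with 500 bp windows and −0.43 with 2.5 kb windows. The start difference was −0.72 without DMSO replicate 3. The region across that start, chr6:134919450-134921754, had 94.7, 86.7 and 98.9 with DMSO and 86.4, 55.0, 98.5 and 71.3 with pracinostat, where pracinostat replicate 3 reached the DMSO level.

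Cdkn1a, the gene of p21, stood low at its table ends and high at its inner start. End percentiles were 38.1, 19.0 and 39.5 with DMSO and 41.7, 39.7, 32.3 and 15.9 with pracinostat, and the groups overlapped (difference 0.0012 ± 0.35, limma adjusted p = 1.00). At the inner start, base 29093769 of chromosome 17 and 2790 bp into the gene, percentiles were 67.0, 59.0 and 82.1 with DMSO and 96.8, 86.1, 77.9 and 83.8 with pracinostat. Pracinostat replicate 3 lay below DMSO replicate 3, and the other 3 pracinostat libraries lay above all DMSO libraries. The difference was 0.64 ± 0.42 (limma adjusted p = 0.882) and 0.49 without DMSO replicate 2. Its highest region, chr17:29093435-29095997, begins before the inner start and had 92.3, 77.7 and 94.0 against 98.8, 95.3, 95.5 and 93.1. Within that region the groups overlapped by 1 library. Neither start passed.

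At its ends neither INK4 gene differed between treatments beyond the spread of its libraries. Cdkn2c, the gene of p18, had end percentiles of 70.7, 62.6 and 83.1 with DMSO and 85.2, 72.4, 59.5 and 73.4 with pracinostat (0.02 ± 0.38, limma adjusted p = 0.999). Cdkn2d had 89.4, 88.7 and 94.1 against 86.5, 94.2, 75.1 and 75.4 (−0.33 ± 0.41, limma adjusted p = 0.942). Both pairs of groups overlapped, and pracinostat replicates 3 and 4 were the lowest at Cdkn2d. Differences at the annotated starts were −0.52 ± 0.40 for Cdkn2d (limma adjusted p = 0.907) and 0.59 ± 0.37 for inner Cdkn2c (limma adjusted p = 0.878). The outer Cdkn2c start gave 0.03 ± 0.40 (limma adjusted p = 0.998). Groups overlapped at each of these starts. A region inside the neighbour Kri1, chr9:21278904-21279426, held the largest regional difference of the 9 genes other than Cdk6, with 88.7, 86.7 and 53.9 against 9.03, 45.5, 10.8 and 7.73 (−1.84 ± 0.53). Every pracinostat library was below every DMSO library, and 3 of them had no summit. The DMSO libraries alone met the filter for ranking, so the difference is a description. The difference was −1.68 without DMSO replicate 2, −1.17 with summits extended by 500 bp and −0.46 with all summits. Across the ends of Kri1 and Cdkn2d, chr9:21287379-21289475 had 86.6 to 98.03 in 7 libraries. The highest region of Cdkn2c, chr4:109675918-109676955, belongs to an end of Faf1 and had 79.1 to 90.1.

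Rb1, the retinoblastoma gene, stood at 12.97, 47.3 and 39.5 with DMSO and 51.4, 26.7, 5.23 and 39.3 with pracinostat. The groups overlapped over nearly their whole range (−0.13 ± 0.38, limma adjusted p = 0.974), and the 47.3 is the tie at the lowest score of DMSO replicate 2. Every end summit lay at its right-hand table end. Its highest region, chr14:73237713-73238582, lies inside Rb1 at an end of Lpar6, a receptor gene within it, and had 54.4 to 92.4. Rb1 had 7 to 61 summits per library over its span, and its share of all summits per 100000 was 16.6 ± 3.43 in the 3 DMSO libraries and 20.1 ± 2.24 in the 4 pracinostat libraries (two-sided exact permutation p = 0.200, adjusted p = 0.960 over all genes).

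**Figure D2:**
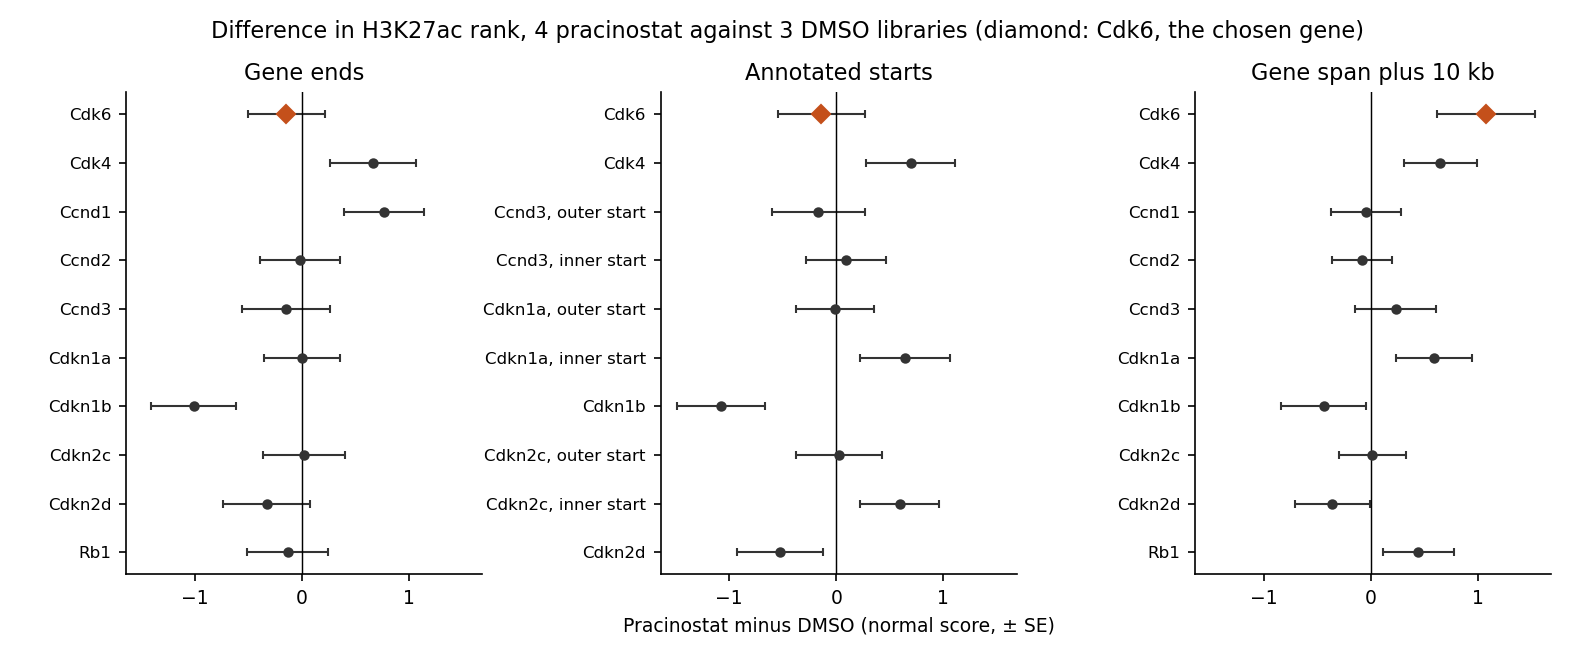
Difference in normal score (pracinostat minus DMSO, with SE) at the gene ends, the annotated starts and the gene spans plus 10 kb, from limma over 3 DMSO and 4 pracinostat libraries. Orange diamonds are Cdk6, whose contrast chose it. Cdkn1b is lowest in the first 2 panels (−1.01 and −1.08), and Cdk6 is highest in the third (1.08).

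Over gene spans plus 10 kb, 0 of 18082 genes passed in limma (1084, or 5.99%, were below 0.05 before adjustment, 2.84% with pracinostat higher and 3.15% lower). Groups were apart with pracinostat higher at 3.03% of spans and lower at 3.36%, and of the 9 tested genes Cdk4 was apart, higher. Over annotated starts 0 of 12309 passed (750, or 6.09%, below 0.05 before adjustment, 2.75% with pracinostat higher and 3.35% lower). Groups were apart at 2.79% (higher) and 3.5% (lower) of starts, and Cdk4 was again the one gene apart. The 10 genes had median end differences of −0.075, with 4 above 0 and 6 below, against −0.015 over all genes. Over spans the median was 0.12 with 6 above 0, against −0.0072.

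Cdk6 over its span stood at 82.6, 79.6 and 92.1 with DMSO and 98.4, 98.5, 99.96 and 82.0 with pracinostat. The first 3 pracinostat replicates were near the top of all genes, and pracinostat replicate 4 was within the DMSO range. In those 3 libraries and in DMSO replicate 1 the highest summit of the span lay in 1 region, chr5:3493951-3495160, which is 1210 bp long and lies inside the gene, 35848 bp from the nearer gene end and with summits 150631 to 150689 bp downstream of the annotated start. Leaving that region out, the span stood at 73.0, 79.6 and 92.1 with DMSO and 79.2, 79.5, 77.7 and 82.0 with pracinostat. The means were then 81.5 ± 9.70 (n = 3) and 79.6 ± 1.79 (n = 4), so the difference of 1.08 normal scores with the region became −0.12 without it.

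At the region itself the percentile among 48314 ranked regions was 94.9, 25.1 and 81.7 with DMSO and 99.6, 99.6, 99.99 and 90.8 with pracinostat. The 25.1 of DMSO replicate 2 means that no summit was called there, and DMSO replicate 1 lay above pracinostat replicate 4. The highest summit in the region was number 8 of 246237 in pracinostat replicate 3, number 175 of 229609 in replicate 2, number 192 of 236737 in replicate 1 and number 4886 of 289017 in replicate 4. With DMSO it was number 2705 of 208401 in replicate 1 and number 12021 of 291042 in replicate 3. The 6 highest summits fell within 58 bp, from 3494524 to 3494582, and 0 of 7 IgG libraries had a summit in the region. The difference was 1.95 ± 0.41 normal scores, and 1.31 without DMSO replicate 2.

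This region was the second of 2 past an adjusted p of 0.05 in limma (0.00414% of regions). Just inside, it had 0.0355, after 0.00772 for a region at Nampt. Just outside were chr8:70730906-70731462 with 0.227 and chr3:105052244-105053380 with 0.259. These values chose the gene and are given as a description. The difference ran from 1.31 (without DMSO replicate 2) to 2.46 (without DMSO replicate 1) over 16 alternatives. Its place against the threshold depended on single libraries. It was past it without DMSO replicate 1 or pracinostat replicate 4, and not past it with any other single library left out. That place describes the values that chose the gene and is no test of the region.

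**Figure D3:**
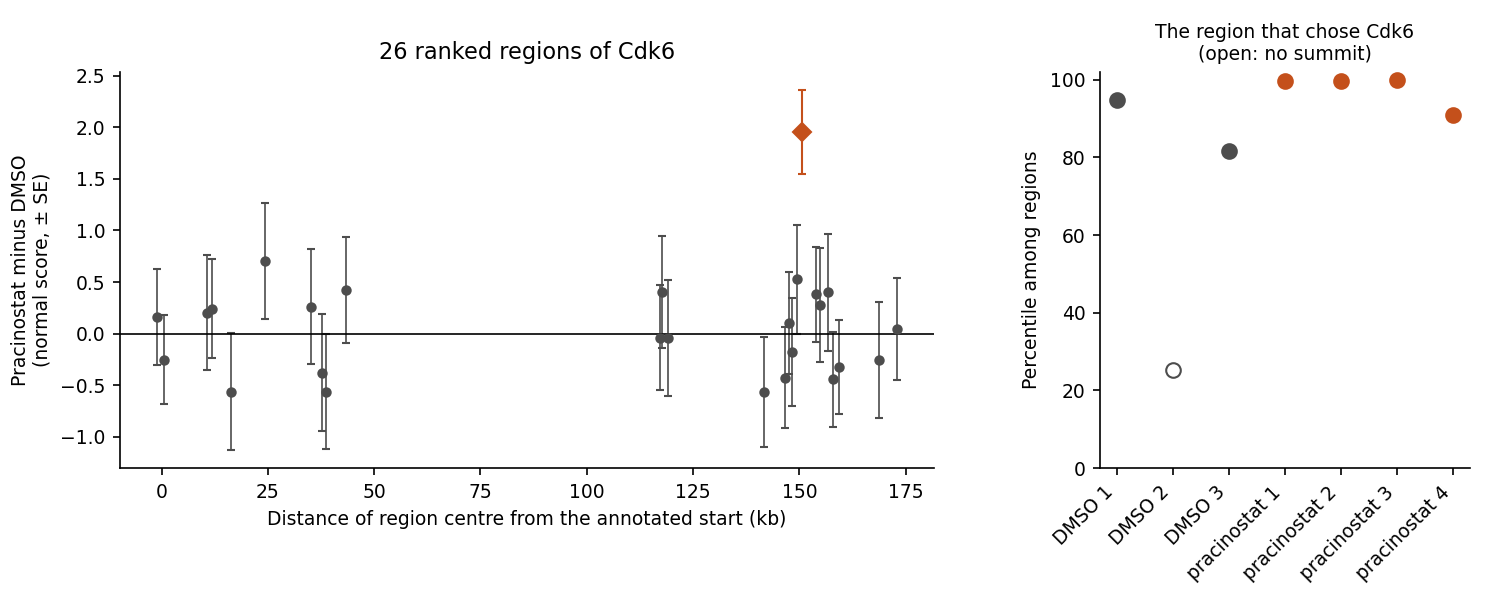
Left, difference between pracinostat and DMSO (normal score, with SE) for the 26 ranked regions of Cdk6 against distance from the annotated start in kb, with the chosen region as an orange diamond. Right, its percentile among all regions in each library, open where no summit was called. The other 25 regions lie between −0.56 and 0.71.

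The other 25 ranked regions of Cdk6 did not follow it. Their differences ran from −0.56 to 0.71 with a median of 0.046 (13 above 0 and 12 below), and their groups overlapped in all 25. Over all regions the median was −0.00094. The nearest ranked neighbours, chr5:3493116-3493715 and chr5:3497496-3498233, had 63.2, 25.1 and 10.2 against 31.6, 78.0, 44.8 and 42.04, and 84.0, 25.1 and 92.9 against 92.9, 61.6, 88.8 and 82.9. Both overlapped between treatments. Only 5 of the 25 had a summit in all 7 libraries, and 19 lacked one in DMSO replicate 2, as did 50.3% of all regions. Those 5 were the flanks of the start (centres at −1064 and 687 bp), a region 11939 bp downstream and 2 regions at 157888 and 159211 bp, beyond the chosen one.

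Among the 52 regions in the spans of the other 9 genes 0 passed in limma, and 4 were below 0.05 before adjustment. All 4 were lower with pracinostat, namely those of Cdk4, Ccnd2, Ccnd3 and Cdkn2d given above. Every DMSO library had a summit in each of them. In total 4 of 7 libraries had one at Cdk4, Ccnd2 and Cdkn2d, and 3 of 7 at Ccnd3. The DMSO libraries alone thus met the filter of 3, and most pracinostat values there are ties without a summit. These 4 differences are therefore descriptions. Over all regions 5.18% had a limma p below 0.05 before adjustment, 2.61% higher and 2.57% lower. Groups were apart at 3.36% (higher) and 3.04% (lower).

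**Figure D4:**
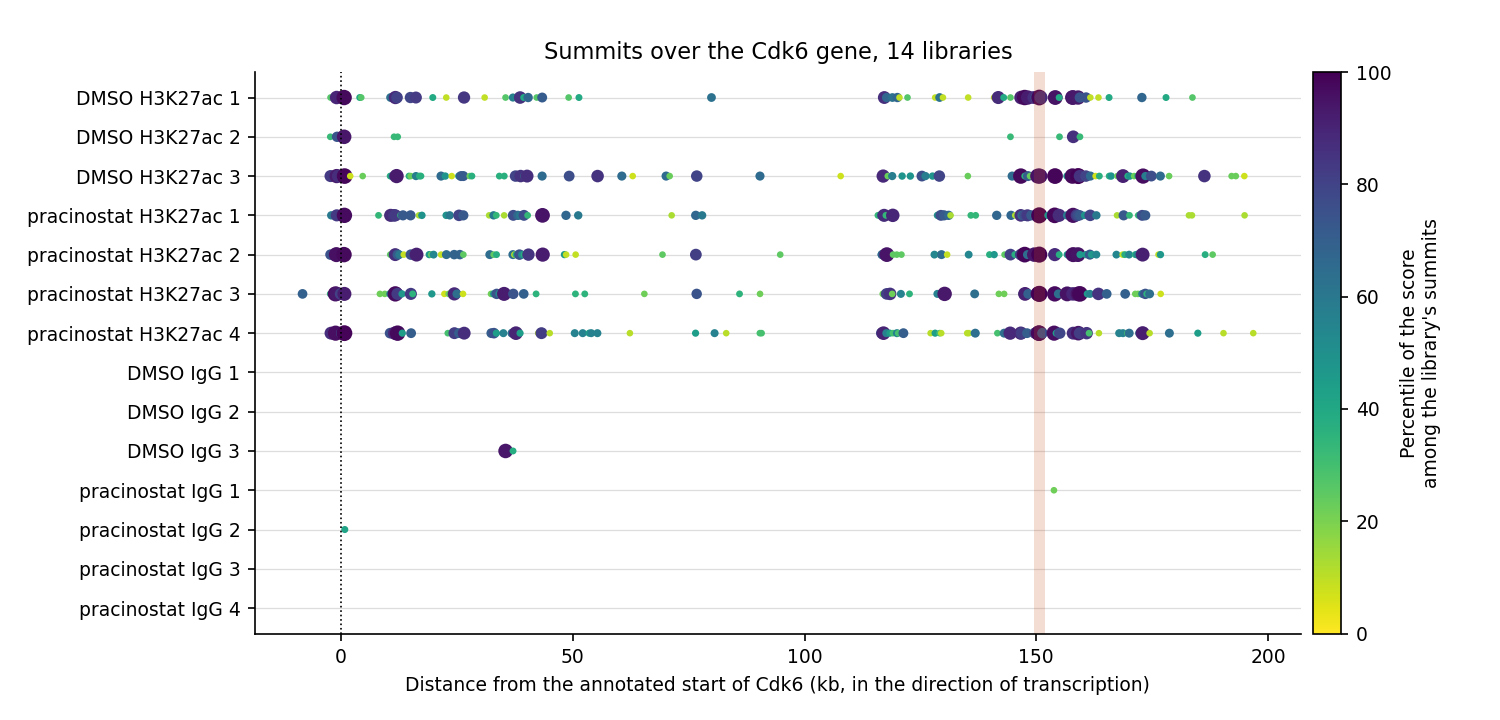
Summits over Cdk6 in 7 H3K27ac and 7 IgG libraries, by distance from the annotated start in kb. Colour and size give the percentile of the summit's score among all summits of its library, the dotted line is the start and the band is the chosen region. Summits gather at the start, over the following 50 kb and again beyond 115 kb, and DMSO replicate 2 has few.

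Summits covered Cdk6 unevenly. Its span held 64, 9 and 84 summits with DMSO and 76, 85, 72 and 82 with pracinostat, while the IgG libraries held 0 to 2. Per 100000 summits of the library this was 25.5 ± 7.54 (n = 3) and 31.7 ± 3.90 (n = 4), where DMSO replicate 2 was the lowest at 16.8. Between 140 and 165 kb from the start, the stretch with the chosen region, there were 23, 4 and 18 summits with DMSO and 22, 22, 19 and 20 with pracinostat in 25 kb. Between 50 and 115 kb there were 2, 0 and 9 and 4, 4, 6 and 11 in 65 kb. The former stretch held 18 to 23 summits in each of the 6 longer lists. Per 10 kb of span Cdk6 had 3.05, 0.429 and 4.00 summits with DMSO and 3.62, 4.05, 3.43 and 3.90 with pracinostat.

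By summits per length, 7 of the other 9 genes lay above Cdk6. Each span includes the 10 kb flanks, and spans ran from 23.0 kb at Cdkn2d to 210 kb at Cdk6. By the number of summits, not divided by length, Cdk6 stood at percentiles of 92.8 to 99.2 among all gene spans. The density percentile among all gene spans, averaged over the 7 libraries, was 95.3 ± 1.42 for Cdkn2d, 90.7 ± 4.77 for Cdk4, 89.3 ± 7.94 for Cdkn1b and 87.4 ± 5.40 for Ccnd1. Cdkn1a (80.8 ± 13.4), Ccnd3 (80.1 ± 3.41) and Cdkn2c (76.2 ± 5.82) followed, then Cdk6 at 72.0 ± 6.02, Rb1 at 68.7 ± 5.12 and Ccnd2 at 60.9 ± 7.96. Comparing treatments by the share of summits in each span, 0 of 18082 genes passed the exact permutation test after adjustment, and 3.45% lay below 0.05 before adjustment (1.65% with pracinostat higher, 1.8% lower). The 9 tested genes had exact permutation p-values from 0.200 (Rb1) to 0.914 (Cdkn1a), where 0.0286 is the smallest that 35 splits allow.

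Other genes of the switch were read at their ends from 8 lists around the 10 genes, and 0 genes of any list passed in limma. The genes named are those with the smallest p per direction in each list. Over all gene ends the groups were apart at 2.88% (pracinostat higher) and 3.79% (lower). Of 6 further CDK inhibitor and pocket protein genes 3 were higher and 3 lower. Rbl1, which encodes the pocket protein p107, had 41.5, 19.0 and 22.9 with DMSO and 54.5, 73.3, 57.2 and 85.04 with pracinostat. Its groups did not overlap (1.10 ± 0.36, limma adjusted p = 0.700, and 0.97 without DMSO replicate 2). Cdkn2a, the INK4 gene for p16 and p19ARF, went from 32.1 to 14.5 in the group means and its groups overlapped. Of 8 genes of the CDK2 module (4 higher, 4 lower), Cks1b, a small CDK subunit, had 93.1, 88.7 and 79.6 against 94.5, 95.2, 96.3 and 99.7. Those groups lay apart, and Skp2, the p27 ubiquitin ligase subunit, had the smallest p among the lower genes (−0.36 ± 0.37, limma adjusted p = 0.927).

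Among 10 E2F and DP factor genes 3 were higher and 7 lower, and E2f4, a repressive E2F, had 39.8, 62.6 and 33.3 against 78.7, 69.5, 73.3 and 64.4, without overlap (0.70 ± 0.36, limma adjusted p = 0.809). Such a gap with pracinostat higher was present at 2.88% of all gene ends. E2f2 led the lower ones (−0.48 ± 0.35, limma adjusted p = 0.877). Of 8 genes of cyclin D and p27 turnover 6 were higher and 2 lower, with Cul1 and Skp1, 2 parts of the SCF ubiquitin ligase, at 0.33 ± 0.35 and −0.33 ± 0.37. Of 6 genes of the CDK activating kinase and its partners 3 were higher and 3 lower, led by the chaperone gene Hsp90ab1 (0.78 ± 0.40) and the cyclin H gene Ccnh (−0.52 ± 0.42). Of 15 E2F target genes of S phase entry 7 were higher and 8 lower, with Mcm6 and Mcm3 of the replicative helicase at 0.58 ± 0.39 and −0.50 ± 0.35. None of these genes had an unadjusted p under 0.05. Without DMSO replicate 2 the differences were nearer 0 at E2f2 (−0.21), Cul1 (0.13), Ccnh (−0.15) and Mcm6 (0.21).

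Of 11 ranked genes of mitogen and self-renewal inputs 5 were higher and 6 lower. Jun, an AP-1 gene upstream of Ccnd1, had 82.2, 62.6 and 87.9 against 98.4, 99.4, 82.8 and 97.1 (1.07 ± 0.43, limma adjusted p = 0.777), and pracinostat replicate 3 overlapped the DMSO libraries. Csf2rb, a cytokine receptor gene, stood lower (−0.75 ± 0.36, limma adjusted p = 0.809). Of 11 genes of stress and arrest inputs 4 were higher and 7 lower, with Smad3 and Smad4 of TGF-beta signalling at 0.68 ± 0.41 and −0.65 ± 0.36. At Smad4 the groups lay apart with pracinostat lower, as they did at 3.79% of all gene ends. The list medians ran from −0.21 (stress and arrest) to 0.11 (turnover), against −0.015 over all genes.

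The genes with end percentiles most like those of Cdk6 over the 7 H3K27ac libraries were Slc23a4, Ifi47, Syt8, Sema4g and Dtx3. Their mean absolute difference from Cdk6 was 4.45, 4.54, 4.58, 4.77 and 4.85 percentile points. These libraries share their depth and ties, and all 5 genes stand at the tie of 47.3 in DMSO replicate 2 as Cdk6 does.

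Macrophage markers ranked above those of every other cell type listed. The 10 macrophage markers, all ranked, averaged 66.5 ± 5.36 (SD over 3 DMSO libraries) and 75.7 ± 5.95 (SD over 4 pracinostat libraries) in end percentile. Of 10 neutrophil markers 8 were ranked, at 38.8 ± 7.82 and 23.7 ± 4.75, and Ly6g and Retnlg had no summit in any H3K27ac library. CD11b is also carried by neutrophils. Lymphocyte markers (5 of 7 ranked, Cd8a without a summit) stood at 23.1 ± 6.10 and 26.6 ± 7.07, and oligodendrocyte markers (3 of 6, Mobp without one) at 33.9 ± 10.9 and 26.9 ± 6.95. Neuron and astrocyte markers (1 of 6, Snap25 and Syt1 without one) stood at 9.47 ± 8.28 and 19.9 ± 15.5, and endothelial and mural markers (3 of 5) at 16.6 ± 11.4 and 19.1 ± 6.02. Over the 7 libraries the list means ranged from 60.8 to 81.4 for macrophage and from 19.4 to 47.6 for neutrophil markers. The part of these shifts in the differences at the 10 genes was not tested.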

How the data were processed

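The files were summit lists, 1 per library, with mouse coordinates on mm10. The tools named per the submitters' processing notes are HOMER, DESeq2, Bowtie2 and MACS2 (2.2.9.1), with no roles, threshold or control stated. The deposited score is a −log10 significance value, of p or q. Read depth is unknown. Scores were used only to rank summits within a list, so a change of all sites alike would not show.

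Genes came from the RefSeq table of GRCm38.p6 and starts from its promoter table (17492 genes). Ranked features had a summit in at least 3 of 7 H3K27ac libraries. Regions were the 30000 highest summits of each list, extended by 250 bp and merged. Ranks as normal scores were compared with limma 3.58.1 (trended, robust variance, with statmod 1.5.0 and R 4.3.3). Benjamini-Hochberg adjustment ran over all features with a threshold of 0.05. Gene ends were also simulated with independent normal noise and no ties. In these simulated ends limma recovered 3 of 50 shifts of 1 normal score and 21 of 50 shifts of 2. It recovered 44 of 50 shifts of 3 and 49 of 50 shifts of 4, with 7 false calls. In that setting most shifts of 1 normal score did not pass. The ranked data hold ties, so the share recovered in them was not measured. Fisher's exact tests and exact permutations used SciPy 1.17.1. The 10 genes and the gene lists were chosen with earlier results of these data known. The named genes were all 10, the gene with the smallest p per direction in each list, the 5 most like Cdk6, and for each gene the region with the highest mean and the one with the smallest p. The following comparisons were added after the data were seen: the annotated starts, the Cdk6 span without its region, and the position of the highest summit.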

Additional observations from a re-analysis of the deposited data

Results flagged for a closer look

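Pracinostat replicate 4 stood apart from the other pracinostat libraries in 4 of 41 group values tested, by a gap to its nearest neighbour above Dixon's critical share of the group's range. Chance alone sets such a mark in about 1 in 20 independent groups, but these 4 values are not independent. The Ccnd1 span includes the Ccnd1 ends, and the Cdk6 span includes the chosen region. The values at Cdk6 are also those that chose the gene. The marks are therefore descriptions, and no excess over chance is read from them. At the ends of Ccnd1 it stood at a percentile of 90.3, where the other 3 libraries had 51.4 to 57.2. Over the Ccnd1 span it had 85.98 against 50.4 to 53.1. Over the Cdk6 span it had 82.0 against 98.4 to 99.96, and at the chosen Cdk6 region 90.8 against 99.6 to 99.99. Without this library the Ccnd1 end difference went from 0.77 to 0.47 normal scores and that of the Cdk6 region from 1.95 to 2.37.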

How the results depend on the processing

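Counts past the threshold stayed small. Against 0 gene ends, 2 passed with a summit in any library, 1 with a summit in all 7, 1 with the 30000 highest summits and 2 with 500 bp windows, and 0 to 4 with 1 library left out. Against 0 spans, 1 passed with 30000 summits, 1 with no flank and 0 to 2 with 1 library left out. Against 0 annotated starts, 1 passed with a summit in any library, 1 with a summit in all 7 and 0 to 1 with 1 library left out. Against 2 regions, 1 passed with a summit in all 7, 1 with the replicate block, 0 with list length as a covariate, 1 with array weights, 0 with plain eBayes, 4 with all summits, and 0 to 2 with 1 library left out. Against 10991 genes over IgG, 0 passed with lists of equal length and 3533 with moved windows. The cause of these changes was not tested.

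The replicate numbers did not pair the samples: same-numbered libraries correlated at −0.054, 0.00052 and −0.024 in their deviations at gene ends. With the number as a block 0 ends, 0 spans and 0 starts passed.

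Directions turned in the cases below, and none of the turned differences passed. Most began near 0, but not those of the inner Cdk4 region (−1.26), the Cdk6 span (1.08), the inner Cdkn2c region (0.48) and the Cdkn1b span (−0.44). At gene ends Cdk6 (−0.14) became 0.18 with 2.5 kb windows. Ccnd2 (−0.02) became 0.068 with a summit in any library, 0.18 with the block and 0.17 with the covariate. It became 0.14 with array weights and 0.32 with 2.5 kb windows. Cdkn1a (0.0012) became −0.16 with the covariate, −0.031 with array weights, −0.32 with 500 bp windows and −0.019 at the 5′ end alone. Cdkn2c (0.02) became −0.14 with the covariate and −0.047 with 500 bp windows, and Rb1 (−0.13) 0.016, 0.076 and 0.054 with the covariate, array weights and 2.5 kb windows. Over spans Ccnd2 became 0.034 with the block, 0.12 with the covariate, 0.066 with array weights and 0.15 with 20 kb flanks. Ccnd1 became 0.15, 0.022 and 0.53 with the last 3, Cdkn2c −0.079 with the covariate and Cdkn1b 0.028 with no flank. The Cdk6 span became −0.12 without its region. The outer Cdkn1a start became 0.091 (any library) and 0.16 (block), and the outer Cdkn2c start −0.13 (covariate). The Rb1 region at Lpar6 became −0.093 (block) and −0.12 (covariate), the Ccnd3 region at Taf8 0.11 (block) and 0.022 (array weights), the Cdkn2d region at Kri1 0.59 (100 bp extension), the inner Cdk4 region 0.58 (500 bp extension) and 0.48 (all summits), and the inner Cdkn2c region −0.0048 (all summits).

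With 1 library left out, end differences ran from −0.33 to 0.18 for Ccnd2, −0.51 to 0.11 for Ccnd3, −0.20 to 0.17 for Cdkn1a, −0.12 to 0.19 for Cdkn2c and −0.45 to 0.20 for Rb1, and that of Cdk6 from −0.43 to 0.030. Span differences ran from −0.30 to 0.19 for Ccnd1, −0.35 to 0.14 for Ccnd2 and −0.075 to 0.12 for Cdkn2c. Start differences ran from −0.53 to 0.096 and −0.27 to 0.34 for the outer and inner Ccnd3 starts, −0.17 to 0.16 for outer Cdkn1a and −0.12 to 0.20 for outer Cdkn2c. Those regions ran from −0.093 to 0.35 (Rb1), −0.35 to 0.20 (Ccnd3), −0.42 to 0.023 (Cdkn2d) and −0.11 to 0.052 (Cdkn2c at Faf1). Read depth is unknown, and its part in these values was not tested.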
